A study of Homo sapiens with 6 samples.

Results

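The kynurenine pathway enzymes are described here by the 14 probe sets that the platform annotation pairs with KYNU, IDO1, TDO2, KMO, HAAO, AFMID and QPRT, out of 54613 probe sets that are no controls. KYNU is read by 4 of them, KMO by 3, TDO2 and QPRT by 2 each, and IDO1, HAAO and AFMID by 1 each. The 7 genes were chosen with the difference between the groups of this series already known, above all that of KYNU. The values of these genes are therefore a description, and no test of them is offered. No filter on low values was applied, so all 14 probe sets enter.

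The data are 6 Affymetrix HG-U133 Plus 2.0 arrays of total RNA from 1833 cells, a bone-seeking subline of the human breast cancer line MDA-MB-231. The 3 control arrays come from cells with the vector alone, and 3 arrays come from cells labelled as carrying S153E-RKIP, a mutant of the Raf-1 inhibitor RKIP described in the series as the more potent form. The mutant was delivered by lentivirus and the cells were held in puromycin. The labels do not say whether the cells are 1 clone or a pool. They call the arrays biological replicates without saying how these were made, so p-values and errors below measure no more than the spread of these arrays, part of which may be technical.

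The pathway breaks down tryptophan. IDO1 and TDO2 open its ring, AFMID removes the formyl group to give kynurenine, KMO hydroxylates kynurenine, KYNU cleaves kynurenine and hydroxykynurenine to anthranilate and hydroxyanthranilate, HAAO opens the ring of the latter, and QPRT turns quinolinate into a precursor of NAD. IDO1 is known as an interferon gamma target in tumour and myeloid cells, TDO2 as a liver enzyme, and kynurenine and some of its products as ligands of the aryl hydrocarbon receptor.

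Of the 7 enzymes, KYNU stood higher on the arrays labelled S153E-RKIP, by 0.54 to 1.56 on the log2 scale depending on the probe set. The other 6 enzymes had differences between -0.13 and 0.15, and the groups overlapped on each of their 10 probe sets. Over the whole series, 17.1% of probe sets had groups that did not overlap. All values are log2 RMA signals, a background-corrected and quantile-normalised summary of the probes of a probe set, and each difference is the S153E-RKIP mean less the control mean. Levels of different probe sets cannot be set against each other.

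Some facts of the whole series bear on every value below. The source name of the arrays labelled S153E-RKIP speaks of shRNA against HMGA2, while their other labels speak of S153E-RKIP. PEBP1, which encodes RKIP, and HMGA2 had differences of -0.093 (SE 0.062) and -0.023 (SE 0.062) on their brightest probe sets. The groups overlapped on all 3 probe sets of PEBP1 and on 8 of the 9 of HMGA2. On the other one, 1567224_at, named after its values were seen, all S153E-RKIP arrays lay below all control arrays. Its difference was -0.26 (SE 0.089, limma adjusted p = 0.278). Of all probe sets, 17.1% had groups that did not overlap in either direction. The probe sets of PEBP1 may lie outside the introduced sequence, which was not analysed here. S153E-RKIP replicate 1 stood apart from replicates 2 and 3 on the second principal component of all genes, which carried 21.6% of the variance. Vimentin, CD44, EGFR and the keratins 8, 18 and 19, markers of the line, had control means from 9.99 to 14.47. KRT19 fell by 0.48 (SE 0.056, limma adjusted p = 0.00437), or by 0.18 with the mean of its probe sets, where it was not called (limma adjusted p = 0.246). Groups that did not overlap were found for 20.1% of all genes. The same held for 5 of these 6 markers, with S153E-RKIP higher on CD44 and lower on the other 4. Their summed log2 level ran from 72.6 to 72.7 on the control arrays and from 71.6 to 72.0 on the S153E-RKIP arrays, and the part of this in the results below was not tested. ESR1, PGR, ERBB2 and CDH1, which the line is known to lack or hold at a low level, had control means from 4.02 to 7.72.

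The promoter of KYNU and that of IL6 are shown first, KYNU because it is the enzyme that stood higher, and IL6 because its profile over the arrays was the nearest to that of KYNU among all genes. Each is the 250 bases before the RefSeq gene start on GRCh38.p14, plus strand, at chr2:142877414-142877663 for KYNU and chr7:22726950-22727199 for IL6. Capitals mark matches to the motifs named below them.
KYNU: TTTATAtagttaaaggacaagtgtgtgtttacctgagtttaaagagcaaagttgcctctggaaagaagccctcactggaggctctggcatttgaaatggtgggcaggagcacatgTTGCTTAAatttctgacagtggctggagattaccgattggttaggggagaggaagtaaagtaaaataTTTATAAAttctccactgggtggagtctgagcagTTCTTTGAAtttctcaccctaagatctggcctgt
IL6: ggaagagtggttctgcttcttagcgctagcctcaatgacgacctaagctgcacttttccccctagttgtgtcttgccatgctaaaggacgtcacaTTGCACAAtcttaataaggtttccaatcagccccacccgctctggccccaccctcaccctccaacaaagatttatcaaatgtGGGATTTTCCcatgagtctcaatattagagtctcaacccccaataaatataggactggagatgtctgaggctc

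Positions count back from -1, the base before the start, and both strands were searched. Both promoters held the C/EBP motif TTGCNNAA, from position -135 in KYNU and from -155 in IL6. Of 35116 promoter windows of the same length, 9.05% held it. KYNU also held TTCNNNGAA, the interferon gamma activated site, from position -34, a motif found in 6.57% of all windows. It held TATAAA from position -66 on the plus strand, and on the minus strand at -68, overlapping the former, and at -250, and 10.7% of all windows held TATAAA on either strand. The kB motif, read by NF-kB, was matched from position -73 in IL6 and nowhere in the KYNU window, with 9.96% of all windows holding it. The AP-1 motif TGANTCA (6.57% of windows), the interferon-stimulated response element (3.02%) and the xenobiotic response element GCGTG (32.2%), which the aryl hydrocarbon receptor reads, were not found in the windows of KYNU or IL6.

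Promoter windows were at hand for 6 of the 7 enzymes, that of IDO1 being the exception. Among these 6, TTGCNNAA and TTCNNNGAA were found in KYNU alone, TGANTCA in TDO2 alone and GCGTG in AFMID alone. None held the kB motif or the interferon-stimulated response element. TATAAA was found in 4, namely KYNU, TDO2, KMO and AFMID. These matches are letters in a window and say nothing of whether a factor bound there. Each motif was searched as a fixed pattern, so a window without a match may still hold another form of it.

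KYNU encodes kynureninase, a pyridoxal phosphate enzyme that acts on both kynurenine and hydroxykynurenine. Its brightest probe set, 217388_s_at, read 8.02, 8.61 and 8.09 in control replicates 1, 2 and 3, and 9.47, 10.00 and 9.92 in S153E-RKIP replicates 1, 2 and 3. The groups did not overlap, the lowest S153E-RKIP array lying above the highest control array. Control replicate 2 was the highest of its group and S153E-RKIP replicate 1 the lowest of its own. The group means were 8.24 ± 0.32 and 9.79 ± 0.28 (SD, n = 3 each), a difference of 1.56 (SE 0.18, 95% confidence interval 1.15 to 1.96), or 2.94-fold. Without S153E-RKIP replicate 1, the array that stood apart, the difference was 1.72 (SE 0.17). With this probe set and all arrays KYNU had the 15th highest difference among the 19775 genes.

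The other probe sets of KYNU ordered the groups the same way. Probe set 210663_s_at read 7.91, 8.26 and 7.87 in control and 8.85, 9.38 and 9.33 in S153E-RKIP replicates 1, 2 and 3, a difference of 1.17 (SE 0.15). Probe set 204385_at read 7.37, 7.68 and 7.35 in control and 8.27, 8.71 and 8.56 in S153E-RKIP, a difference of 1.05 (SE 0.13). On both, as on the brightest one, control replicate 2 stood highest in its group and S153E-RKIP replicate 1 lowest in its own, and the groups did not overlap.

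The dimmest KYNU probe set, 210662_at, read 3.68, 3.87 and 3.71 in control and 4.04, 4.52 and 4.32 in S153E-RKIP, a difference of 0.54 (SE 0.12). Its groups did not overlap either, yet its mean over the arrays lay under 4.33, the 25th percentile of all probe sets, where signal over background was not measured. The 4 probe sets thus differed in the size of the change while sharing its direction. Inside each array, 217388_s_at exceeded 204385_at by 0.77 ± 0.14 in control and by 1.28 ± 0.077 on the S153E-RKIP arrays (SD, n = 3 each). The same margin over 210663_s_at was 0.22 ± 0.12 and 0.61 ± 0.018 (SD, n = 3 each). Between 210663_s_at and 204385_at the margin was 0.55 ± 0.028 and 0.67 ± 0.093 (SD, n = 3 each), so it moved least there. These margins show unequal change between probe sets and not which of them reads KYNU more fully. With the mean of all 4 in place of the brightest one, the difference of KYNU was 1.08 (SE 0.14).

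**Figure D1:**
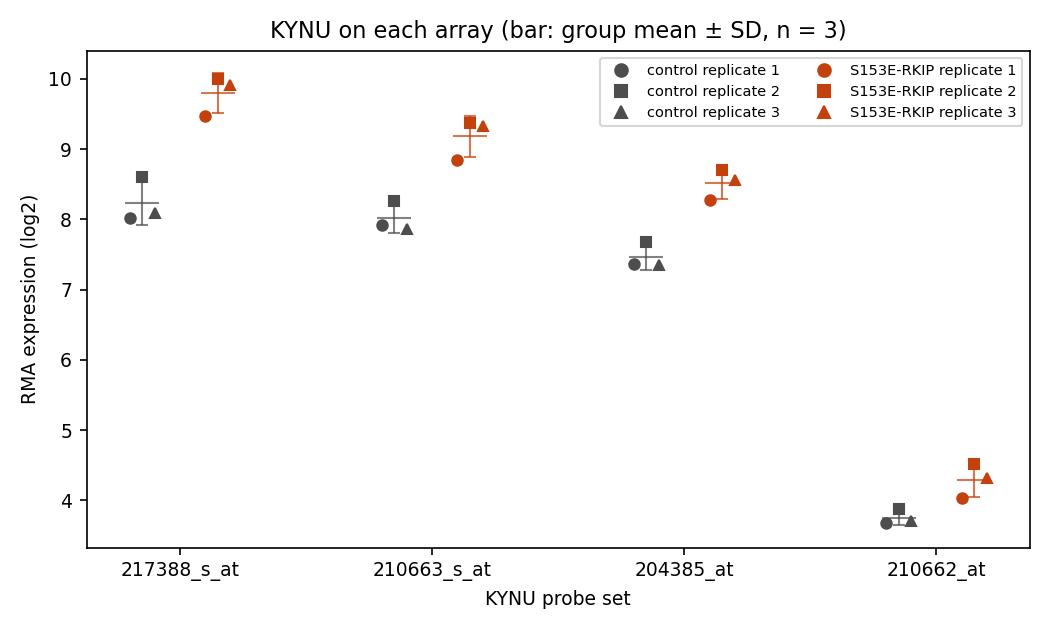
The plot shows the log2 RMA value of each KYNU probe set (x axis) on each of the 6 arrays, with control in grey, S153E-RKIP in orange, the replicate by marker shape, and bars for group mean and SD (n = 3). On all 4 probe sets the 3 S153E-RKIP arrays lie above the 3 control arrays, with the widest gap on 217388_s_at (1.56) and the narrowest on 210662_at (0.54).

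In the limma fit of all 54613 probe sets, 3 of the 14 pathway probe sets, all of them KYNU, were among those called higher at an adjusted p under 0.05, where 0.366% of all probe sets were called higher and 1.05% in either direction. The groups did not overlap on 4 of the 14, where 8.09% of all probe sets had all S153E-RKIP arrays above control and 17.1% did not overlap in either direction. Since the genes were chosen on this contrast, nothing is read from these counts. Over 11 alternative settings for probe sets, 217388_s_at was called in 10, all but the fit without S153E-RKIP replicate 2. Probe sets 210663_s_at and 204385_at were called in 7, and were not called without control replicate 1, control replicate 3, S153E-RKIP replicate 2 or S153E-RKIP replicate 3. Probe set 210662_at, not called with all arrays, was called in 3. The direction was the same in all 11 for each of the 4. These settings repeat the contrast on which the genes were chosen, so their counts too are a description and no support. Over the 7 genes, each by its brightest probe set, the median difference was 0.037, against 0.010 over all 19775 genes. For the 6 genes besides KYNU it was 0.033.

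IDO1 and TDO2 encode the enzymes of the first step. The single IDO1 probe set read 6.04, 5.93 and 5.86 in control and 6.06, 6.18 and 6.04 in S153E-RKIP replicates 1, 2 and 3. The groups met at the top control array, which had the same value as S153E-RKIP replicate 3, and IDO1 differed by 0.15 (SE 0.072, 95% confidence interval -0.017 to 0.31). The brighter TDO2 probe set read 3.84, 3.74 and 3.43 in control and 3.69, 3.61 and 3.82 in S153E-RKIP, and the difference was 0.037 (SE 0.11). The second one had a difference of 0.012 (SE 0.095). Both TDO2 probe sets lay below the 25th percentile of all probe sets, where signal over background was not measured.

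AFMID encodes the formamidase of the second step. Its probe set read 6.81, 6.72 and 6.69 in control and 6.75, 6.75 and 6.80 in S153E-RKIP, a difference of 0.028 (SE 0.062). KMO encodes the monooxygenase that competes with KYNU for kynurenine. Its brightest probe set, 205306_x_at, read 4.36, 4.26 and 4.25 in control and 4.06, 4.40 and 4.03 in S153E-RKIP. S153E-RKIP replicate 2 was the highest of all 6 arrays on it while replicates 1 and 3 were the lowest, and KMO differed by -0.13 (SE 0.10, 95% confidence interval -0.36 to 0.10). The other KMO probe sets had differences of 0.0029 (SE 0.063) and 0.090 (SE 0.076). The 3 probe sets thus did not share a direction, and all 3 lay below the 25th percentile.

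HAAO, the dioxygenase that acts on the product of KYNU, read 6.87, 6.87 and 7.03 in control and 6.89, 7.05 and 6.99 in S153E-RKIP, a difference of 0.054 (SE 0.073). QPRT, the phosphoribosyltransferase that leads to NAD, had a difference of 0.018 (SE 0.069) on probe set 242414_at, which read 5.16, 5.34 and 5.33 in control and 5.29 on each S153E-RKIP array. Those 3 deposited values are identical, so the SD of that group is 0. On probe set 204044_at QPRT read 4.92, 4.95 and 5.03 in control and 4.70, 4.84 and 5.26 in S153E-RKIP, a difference of -0.036 (SE 0.13). The S153E-RKIP arrays enclosed all 3 control arrays there, with replicate 1 lowest and replicate 3 highest.

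None of the 10 probe sets of these 6 enzymes had groups that did not overlap, where 17.1% of all probe sets had. None was called (1.05% of all probe sets were), and none had an unadjusted p under 0.05 in limma (13.2% of all did). Each of their 95% confidence intervals held 0, and the lowest bound was -0.36 (KMO) and the highest 0.31 (IDO1). Genes below the median level, among them IDO1, TDO2, KMO and QPRT, had a median difference of 0.053, and genes above it, among them HAAO and AFMID, one of -0.029. By their brightest probe sets, IDO1, TDO2 and QPRT had differences of the same sign as the genes of their level, and KMO, HAAO and AFMID of the opposite sign. The part of that shift in the differences was not tested.

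**Figure D2:**
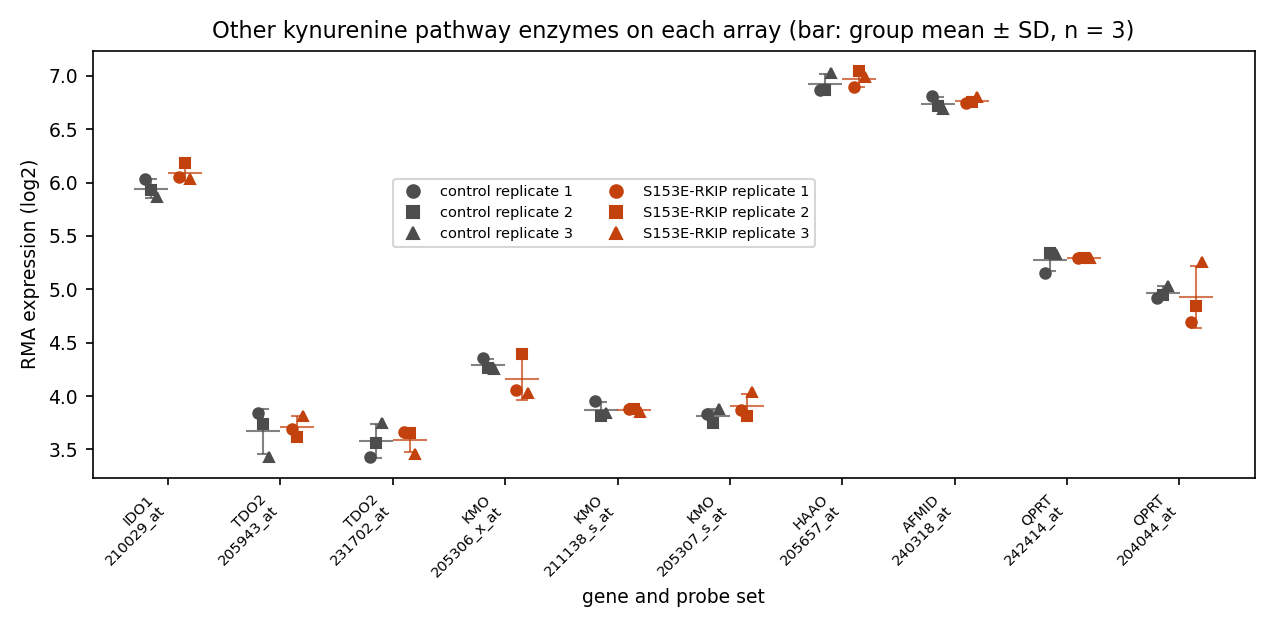
The plot shows the log2 RMA value of the 10 probe sets of IDO1, TDO2, KMO, HAAO, AFMID and QPRT on each array, with control in grey, S153E-RKIP in orange, the replicate by marker shape, and bars for group mean and SD (n = 3). The groups overlap or meet on all 10, and the differences run from -0.13 (KMO) to 0.15 (IDO1).

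**Figure D3:**
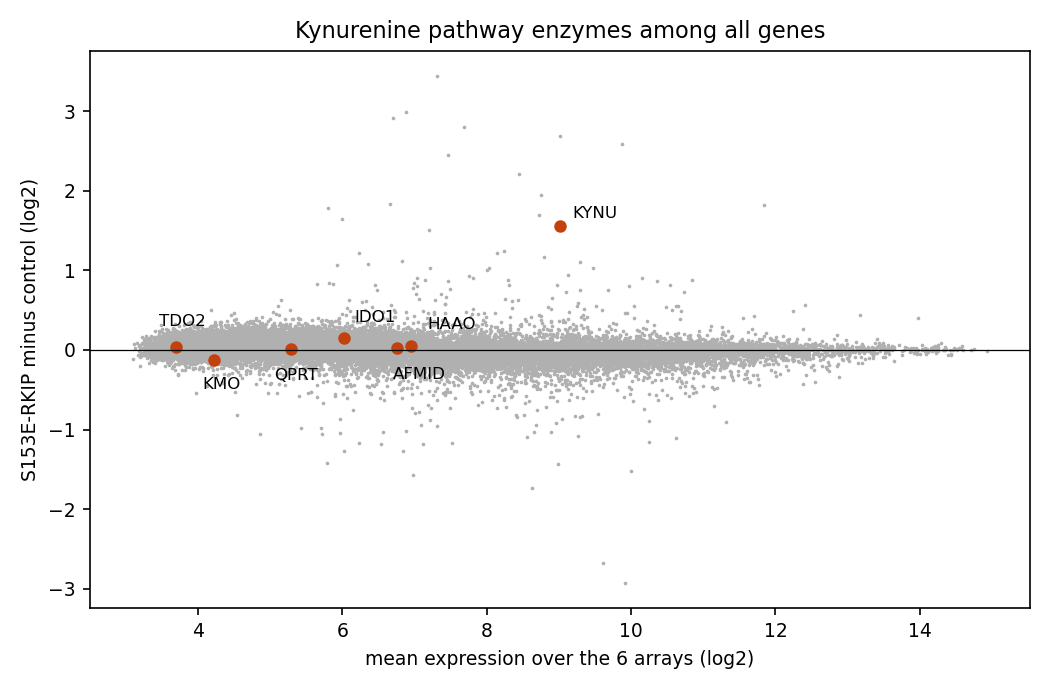
The plot sets the difference between the groups (y axis, log2) against the mean over the 6 arrays (x axis, log2) for all 19775 genes in grey, with the 7 enzymes in orange, each by its brightest probe set. KYNU lies at 1.56, outside the band of most genes, and the other 6 enzymes lie inside it.

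The genes whose profile was most like that of KYNU were found by the root mean square distance over the 6 arrays between profiles centred on each gene's own mean. Over 19774 genes the median distance was 0.82. The nearest was the inflammatory cytokine IL6, with a distance of 0.093. The chemokine genes CXCL8 and CXCL2 followed with distances of 0.22 and 0.23, MIR146A with 0.22 and the adhesion molecule ICAM1 with 0.24. The sixth, SERPINA1, followed at 0.25. Because KYNU differs by group, such a list holds by construction genes that differ by group, and their differences are given as values only.

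IL6 read 7.72, 8.20 and 7.71 in control and 9.34, 9.68 and 9.71 in S153E-RKIP, a difference of 1.70 (SE 0.15). Like KYNU, it was highest among controls in replicate 2 and lowest among the S153E-RKIP arrays in replicate 1. CXCL8 read 10.81, 11.22 and 10.78 in control and 12.76, 12.80 and 12.71 in S153E-RKIP, so it shared the high control replicate 2 and not the low S153E-RKIP replicate 1. ICAM1 read 7.97, 8.43 and 8.23 in control and 9.25, 9.44 and 9.44 in S153E-RKIP, with a difference of 1.17 (SE 0.11). MIR146A and CXCL2 had differences of 1.84 (SE 0.25) and 1.95 (SE 0.13). The probe set named MIR146A reads a transcript annotated to that gene, not the mature miRNA.

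The list of nearest genes depended on the probe set that stands for a gene. All 5 were found again after a second quantile normalisation and after shifting the arrays to equal medians, and 3 without probe sets ending in _x_at, which can pair with several transcripts. When each gene was the mean of its probe sets, 1 of the 5, ICAM1, was shared, and the nearest was then HLA-DRA. CXCL2 had a difference of 0.56 without probe sets ending in _x_at, and MIR146A one of 0.95 with the mean of its probe sets. Of the 4 with a promoter window, 2 held the kB motif (IL6 and CXCL2) and 2 held TTGCNNAA (the same genes). Of all windows, 9.96% held the kB motif and 9.05% held TTGCNNAA. A window without a match may hold another form of the motif.

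**Figure D4:**
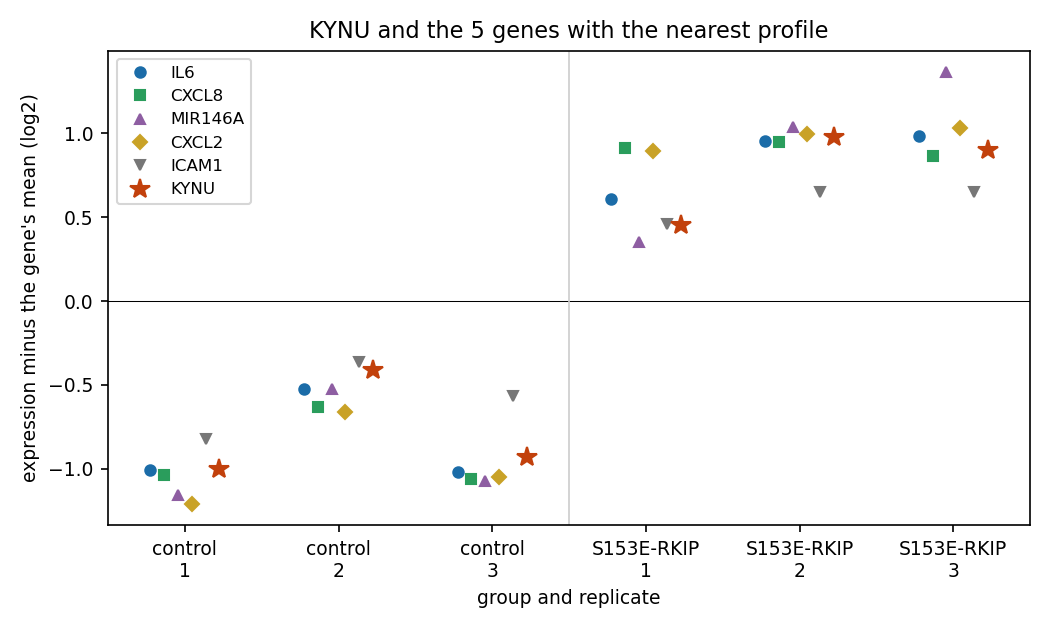
The plot shows, for KYNU (orange stars) and the 5 genes with the nearest profile, the log2 value on each array minus the gene's mean over the 6 arrays. All 6 genes lie below their mean on the 3 control arrays and above it on the 3 S153E-RKIP arrays, and control replicate 2 is the highest control array for each.

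Genes around the pathway were taken from 6 lists and tested in the limma fit of all 19775 genes, with Benjamini-Hochberg adjustment over all of them. In that fit 376 genes, or 1.9%, were called at an adjusted p under 0.05, 136 higher (0.688%) and 240 lower (1.21%), and 15.7% had an unadjusted p under 0.05. Of the 6 lists, only that of the aryl hydrocarbon receptor held a called gene, which was CYP1B1. The lists were chosen with earlier results of these data known, so this call is no independent result about that list.

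The aryl hydrocarbon receptor is a ligand-activated transcription factor, and CYP1A1, CYP1B1, AHRR and TIPARP are known targets of it. Of 10 genes measured in this list, 1 rose, none fell and 9 did not pass. An unadjusted p under 0.05 was found for 2 of them (15.7% of all genes had one), and the median difference was 0.047. CYP1B1, a cytochrome P450 that oxidises oestrogens and aromatic compounds, read 7.63, 7.72 and 7.48 in control and 8.82, 8.91 and 8.84 in S153E-RKIP. The groups lay far apart and varied little within, and the difference was 1.25 (SE 0.074, limma adjusted p = 1.46e-04), or 2.37-fold. All 4 probe sets of CYP1B1 were called higher, with differences from 0.64 to 1.43. Unlike KYNU, CYP1B1 did not stand apart in S153E-RKIP replicate 1, and without that array its difference was 1.26 (SE 0.084).

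The other genes of the list gave no such difference. CYP1A1 had a difference of 0.24 (SE 0.099, limma adjusted p = 0.303) and GPR35, a receptor for kynurenic acid, one of 0.16 (SE 0.072, limma adjusted p = 0.326). AHR itself had a difference of 0.020 (SE 0.092), AHRR one of 0.043 (SE 0.090), TIPARP one of -0.0085 (SE 0.077) and NQO1 one of -0.045 (SE 0.10).

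The side branches of the pathway hold the aminotransferases that make kynurenic acid, the IDO1 paralog IDO2, and enzymes that lead carbon away from quinolinate. None of these 7 genes was called by limma, and 1 had an unadjusted p under 0.05 (15.7% of all genes did). Their median difference was 0.061. KYAT3, an aminotransferase, read 9.81 ± 0.011 in control and 9.61 ± 0.11 in S153E-RKIP (SD, n = 3 each), a difference of -0.20 (SE 0.067, limma adjusted p = 0.207). Its groups did not overlap, as was so for 20.1% of all genes (10.8% with the S153E-RKIP arrays lower and 9.31% with them higher). The aminotransferases KYAT1, AADAT and GOT2 had differences of 0.091 (SE 0.065), -0.016 (SE 0.068) and 0.061 (SE 0.058). IDO2 had one of 0.15 (SE 0.078), ACMSD, the decarboxylase that diverts the pathway from NAD, one of 0.15 (SE 0.072), and ALDH8A1, the dehydrogenase after it, one of -0.11 (SE 0.070).

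Tryptophan is brought in by amino acid transporters and is also used for protein and serotonin. Of 15 genes of supply and other use, none was called by limma, 5 had an unadjusted p under 0.05 (15.7% of all genes did), and the median difference was 0.079. MAOA, a monoamine oxidase that degrades serotonin, had the smallest p, with a level of 8.75 ± 0.14 in control (SD, n = 3) and a difference of -0.41 (SE 0.089, limma adjusted p = 0.0661). Its adjusted p fell under the threshold in 5 of 14 alternative settings, such as the mean of its probe sets (-0.45, limma adjusted p = 0.0348), and its direction was the same in all 14. SLC7A5, the main importer of tryptophan, had a difference of -0.19 (SE 0.066, limma adjusted p = 0.219), and WARS1, the tryptophanyl-tRNA synthetase, one of -0.063 (SE 0.062, limma adjusted p = 0.655). Of the 15 genes, 10 had a difference above 0, as 53.6% of all genes did. Among those with an unadjusted p under 0.05 in limma, MAOA and SLC7A5 were lower and MAOB, SLC16A10 and DDC higher. The latter differed by 0.27 (SE 0.12), 0.21 (SE 0.089) and 0.20 (SE 0.081).

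For the synthesis and use of NAD, the end product of QPRT's branch, none of 15 genes was called by limma. Among them 1 had an unadjusted p under 0.05 (15.7% of all genes did), and the median difference was -0.087. NAMPT, which makes NAD from nicotinamide, read 11.76 ± 0.032 in control (SD, n = 3) and differed by 0.21 (SE 0.063, limma adjusted p = 0.163). It passed in 1 of 14 alternative settings, eBayes with trend and robust estimation (limma adjusted p = 0.0304). Of 4 genes for pyridoxal phosphate, the cofactor of KYNU and the aminotransferases, only ALPL was analysed here, with a difference of -0.018 (SE 0.069, limma adjusted p = 0.928).

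IDO1 is the enzyme best known for induction by interferon gamma. Of 17 genes measured in that list, none was called by limma, 6 had an unadjusted p under 0.05 (15.7% of all genes did), and the median difference was 0.095. Those 6 did not share a direction, with GBP1, CXCL10 and IRF1 higher and SOCS3, JAK2 and IRF9 lower. CXCL10 differed by 0.27 (SE 0.10), JAK2 by -0.17 (SE 0.061) and IRF9 by -0.33 (SE 0.13). GBP1, an interferon-induced GTPase, read 8.75 ± 0.096 in control (SD, n = 3) and differed by 0.31 (SE 0.070, limma adjusted p = 0.0804). It passed in 3 of 14 alternative settings, such as a second quantile normalisation (0.36, limma adjusted p = 0.0437). IRF1, a factor that switches on IDO1, differed by 0.14 (SE 0.060, limma adjusted p = 0.319), and the gene of interferon gamma itself, IFNG, by 0.022 (SE 0.066). SOCS3, a feedback inhibitor, differed by -0.32 (SE 0.092, limma adjusted p = 0.159).

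Myeloid cells express several kynurenine enzymes, so their markers were read as well. None of 10 was called by limma and 2 had an unadjusted p under 0.05 (15.7% of all genes did). These were CD163, a scavenger receptor of macrophages, with a control mean of 4.36 and a difference of 0.28 (SE 0.077, limma adjusted p = 0.139), and AIF1, with a control mean of 6.84 and a difference of 0.20 (SE 0.077, limma adjusted p = 0.279). All 10 had group means between 3.78 and 7.04, and 8 had a difference above 0, as 53.6% of all genes did. Their median difference was 0.10, against 0.053 for all genes below the median level. Their summed log2 level ran from 48.1 to 48.4 on the control arrays and from 49.1 to 49.9 on the S153E-RKIP arrays, so the sums did not overlap. Taken singly, 2 of the 10 had groups that did not overlap, where 20.1% of all genes had. The array medians over all deposited probe sets did not overlap either. These medians ran from 5.60 to 5.62 in control and from 5.63 to 5.67 in S153E-RKIP. PTPRC, a gene of leukocytes in general, and TYROBP, an adaptor of myeloid and natural killer cells, had control means of 3.88 and 3.78 and differences of 0.10 (SE 0.057) and 0.093 (SE 0.12). SPI1 and CSF1R, the markers with a difference below 0, had control means of 4.17 and 5.45. They differed by -0.047 (SE 0.11) and -0.0071 (SE 0.10). The part of these shifts in the difference of KYNU was not tested.

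**Figure D5:**
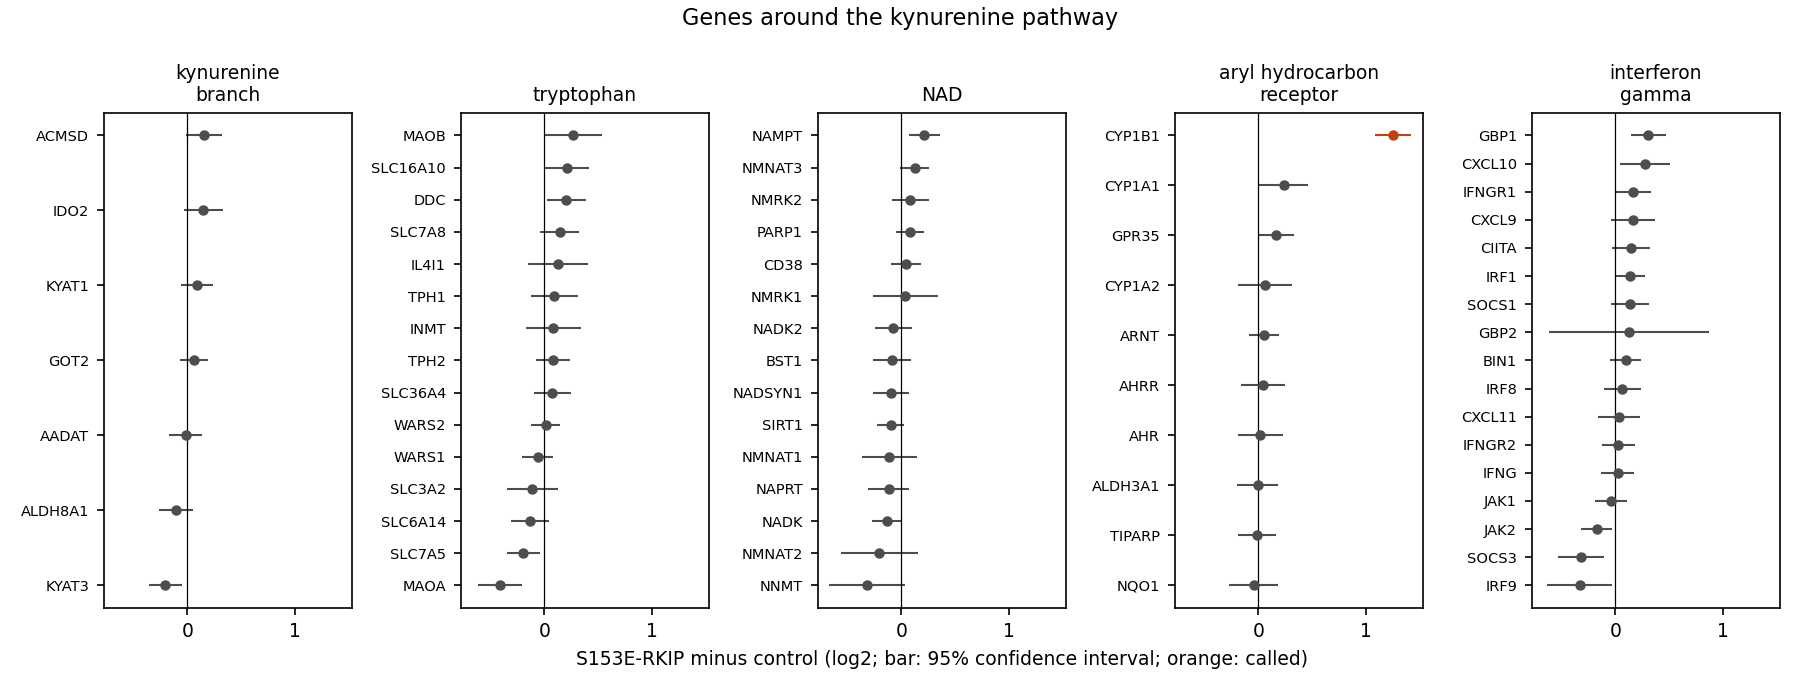
Each panel shows 1 gene list, with the difference between the groups (x axis, log2) of each measured gene as a point and its 95% confidence interval as a bar, in orange where limma called it and grey where it did not. CYP1B1, at 1.25, is the only called gene, and the differences of the others run from -0.41 (MAOA) to 0.31 (GBP1). The list for pyridoxal phosphate, with 1 gene, is not drawn.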

How the data were processed

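The authors deposited log2 signals for 54675 probe sets. These come from RMA, according to the submitters' processing notes, whose version is not stated here. No scanner files were used, and 62 controls were dropped. Genes were named from the platform annotation, and symbols were set against RefSeq (GRCh38.p14) through gene identifiers, which matched 41037 of 41091 probe sets with 1 symbol. A gene was represented by its brightest probe set, which gave 19775 genes, and the enzymes also by each probe set. Groups came from the sample titles. Limma 3.58.1 under R 4.3.3 (lmFit, eBayes, two-sided) was fitted to all genes and to all probe sets, with Benjamini-Hochberg adjustment and a threshold of 0.05. The fit was also run on simulated data with independent normal noise and no array effects. That run checks the code and gives no error rate for these arrays. The enzymes and lists were chosen with earlier results of these data known. The rule for named genes takes every enzyme and branch gene, up to 4 called genes of a list or its gene of smallest p, and the 5 nearest profiles. Other genes named from the lists (CYP1A1, GPR35, AHR, AHRR, TIPARP, NQO1, SLC7A5, WARS1, MAOB, SLC16A10, DDC, IRF1, IFNG, SOCS3, CXCL10, JAK2, IRF9, AIF1, PTPRC, TYROBP, SPI1, CSF1R) were chosen after their values were seen. Replicate numbers were not taken as pairs. A few genes of the lists are not reported here. Promoter and motif searches ran in Python 3.11.15, and figures were drawn with matplotlib 3.10.9.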

Additional observations from a re-analysis of the deposited data

How the results depend on the processing

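Other settings tried were averaged probe sets, no probe sets ending in _x_at, only genes above the median level, a second quantile normalisation, equal medians, a replicate block, array weights, eBayes with trend and robust estimation, and each array left out. The difference of KYNU stayed between 1.08 (the mean of its probe sets) and 1.74 in all 14, and between 1.45 and 1.74 with an array left out. The differences of the other enzymes moved by less than the SD pooled over both groups. Those of AFMID, KMO, QPRT and TDO2 took both signs, with KMO ranging from -0.25 to 0.0029, TDO2 from -0.082 to 0.12 and QPRT from -0.042 to 0.051. The number of genes called by limma was 376, and 600 with trend and robust estimation, and ran from 124 (without control replicate 1) to 303 with an array left out. For probe sets it was 574, and 939 with trend and robust estimation, and ran from 209 (without control replicate 3) to 450. CYP1B1 was called in all 14, so its list kept 1. KRT19 was called in 13 of 14, the mean of its probe sets being the exception. In the tryptophan list 1 gene, MAOA, was called with the mean of probe sets, with only genes above the median level, with equal medians, with trend and robust estimation, and with the replicate block. In the interferon gamma list 1, GBP1, was called with only genes above the median level, after the second quantile normalisation and with trend and robust estimation, and in the NAD list 1, NAMPT, with trend and robust estimation. ALPL had a difference of 0.031 without control replicate 1 and of 0.012 without S153E-RKIP replicate 2, against -0.018 with all arrays, and its values with an array left out began at -0.063. Deviations of same-numbered arrays from their group means correlated at 0.13, 0.26 and -0.044, and control replicate 3 did not correlate best with its own number, so the numbers were not taken as pairs. With the replicate block KYNU differed by 1.56 (SE 0.094) and 332 genes were called. The settings for list genes and for the genes nearest to KYNU were added after seeing the data. The cause of these changes was not tested. Signal over background was not measured.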

Other observations

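Exact ties occur among the deposited values. Of 54613 probe sets, 19782, or 36.2%, have at least 2 of the 6 arrays at one and the same value, and 5673, or 10.4%, have at least 3. Among the 14 probe sets of the kynurenine enzymes there are 3 with such a tie. These are the IDO1 probe set (2 arrays), the HAAO probe set (2 arrays) and 242414_at of QPRT (3 arrays). No KYNU probe set has one.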
